A study of Rattus norvegicus with 35 samples.

Results

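The translation initiation and elongation factor genes were followed in rat converted hypoblast stem cells, as 54 transcript records of 17201 in the count table. They were chosen by name: each record whose RefSeq identifier matched a rat gene symbol starting with Eif or Eef was kept, and the Eif2ak kinase genes were left out. Each of the 54 genes had 1 record. By role, 9 belong to the ternary complex and start codon recognition, 5 to the exchange factor eIF2B, 12 to eIF3, 9 to cap binding, scaffold and helicase, 4 to the eIF4E-binding proteins, 2 to subunit joining and eIF6, 2 to eIF5A, 8 to elongation and 3 to enzymes that modify elongation factors.

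The libraries comprise 34 single cells and 1 bulk population control of the same cells. Both kinds hold converted hypoblast stem cells (cHypoSCs), made by culturing rat embryonic stem cells in 2% fetal bovine serum with the factors LIF, PDGF and EGF, and both were taken on day 12 of differentiation. The hypoblast is the extraembryonic layer that lines the early epiblast. The labels name no genotype, line or strain. RNA was prepared on the C1 system, which isolates single cells in microfluidic chambers, and libraries were made with Nextera XT. No separate cultures are given, so each kind stands for a single sample. No difference between the cells and bulk could therefore be tested, and SDs below describe cells of 1 culture.

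Protein synthesis begins when eIF2 brings the initiator transfer RNA to the small ribosomal subunit, which eIF3 and the cap-binding complex of Eif4e, an Eif4g scaffold and an Eif4a helicase join to the messenger RNA. The large subunit then joins with the help of Eif5b. During elongation, Eef1a1 delivers each aminoacyl-transfer RNA and Eef2 moves the ribosome along. Messenger RNAs of many elongation factors and ribosomal proteins start with a C followed by a run of pyrimidines, the TOP motif, through which mTOR signalling controls their translation.

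The letters around the annotated transcription start are shown for 4 elongation factors, because Eef1a1 and Eef1b2 held the motif there while Eef1g and Eef1a2 did not. Each is 30 bases, 5′ to 3′ on the gene's strand, from 15 bases before the start to 15 bases from the start onward, as given by RefSeq for GRCr8. The reads had been mapped to another build, rn5. Capitals mark the part of the pyrimidine run that lies in the stretch.
Eef1a1 (GRCr8 chr8:88225055-88225084, minus strand): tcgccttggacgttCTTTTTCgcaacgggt
Eef1b2 (GRCr8 chr9:72074076-72074105, plus strand): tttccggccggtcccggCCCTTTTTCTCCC
Eef1g (GRCr8 chr1:215289800-215289829, plus strand): tttctctgcggaatcaccatggcggctggg
Eef1a2 (GRCr8 chr3:188652619-188652648, minus strand): cgctcgggtacatctctgcagctgcgtcct

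The motif was counted where the first C of a pyrimidine stretch lay within 5 bases on either side of the start and at least 4 pyrimidines followed. A stretch whose first C lay before that window was not counted, even where it ran across the start, as in Eef1e1. Of 48 factor genes with a RefSeq start, 9 held it (18.75%), against 29 of 65 ribosomal protein genes (44.6%) and 4231 of 27457 genes in all (15.4%). Read on the opposite strand, the shares were 12.5% of factor genes, 4.62% of ribosomal protein genes and 19.96% of all genes. Besides Eef1a1 and Eef1b2, the factor genes with the motif were Eef1akmt1, Eif1, Eif2b5, Eif2s3, Eif3f, Eif4g3 and Eif5a2. A match depends on where the start is annotated and is no evidence of a functional site. The absence of a match says only that no stretch so counted had its first C in this window. In the Eef1g stretch, the letters atg follow closely on the annotated start, and a pyrimidine run lies before the window. Eef1g is therefore not shown to lack the motif. The share of factor genes with the motif was nearer to that of all genes than to that of ribosomal protein genes.

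Total reads in genes ranged from 6288 to 503044 per cell (median 266046) and came to 47121 in the bulk library. Between 349 and 5514 records had a read in a cell (median 4306), and 4741 had one in bulk. A group of 22 cells held at least 50000 reads and at least 3000 records with a read. They are called gene-rich below, and several results are given both with and without the other 12 cells. C94 (6288 reads) and C88 (12750 reads) were the shallowest, whereas C74 and C95 were deep (431709 and 450250 reads) with few records (1556 and 1642). None of the 561 pairs of cells held identical counts. No doublet was sought.

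The cell type label was checked on markers. Of the hypoblast markers, Gata6 was detected in 28 cells, Dab2 in 27, Gata4 in 26, Sox17 in 24, Pdgfra in 23 and Foxa2 in 19, and 32 cells had at least 1 of the 6. The pluripotency markers were sparse, with Nanog in 7 cells and Pou5f1 and Sox2 in 3 each, and all 3 had 0 reads in bulk. At least 1 of them was detected in 11 cells, and their sum was highest in C74, at 1177 CPM, with a median of 0. C74 leads several genes below, and the part of these pluripotency transcripts in its values was not tested. Of the trophoblast markers, Cdx2 was in 0 cells and Tfap2c in 6. Detection means at least 5 CPM, the reads of a gene scaled to a common library total. The fibroblast markers Col1a1 and Col1a2 differed between the kinds of library: each was detected in 4 cells, and they summed to a median of 0 and a highest value of 2915 CPM in C14, against 1677 CPM in bulk. Only 2 cells exceeded that bulk sum. The part of these fibroblast transcripts in the differences from bulk below was not tested.

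Translation factors took between 0.894% and 4.08% of the reads of a cell. Factor reads were 2.75% ± 0.686 of all reads (SD, n = 34 cells), with the lowest share in C88, a median of 2.78% and the highest shares in C54 and C74. In the bulk library they were 2.81% (Clopper-Pearson 95% interval 2.66% to 2.96%). The cells lay on both sides of the bulk value, and the mean differed from it by less than 1 SD. Among the 22 gene-rich cells the share was 2.88% ± 0.407, from 2.04% in C43 to 4.08% in C54. The other 12 cells had a lower mean and a wider spread, at 2.53% ± 1.00423, and held the lowest shares of all, 0.894% in C88, 1.28% in C14 and 1.45% in C30. Eef1a1 alone took 0.827% ± 0.44 of the reads in the cells and 0.734% in bulk. The 43 records of Eif genes took 1.36% ± 0.384 in the cells and 1.48% in bulk. Ribosomal protein genes (81 records) took 4.92% ± 1.25 in the cells and 3.08% in bulk.

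**Figure D1:**
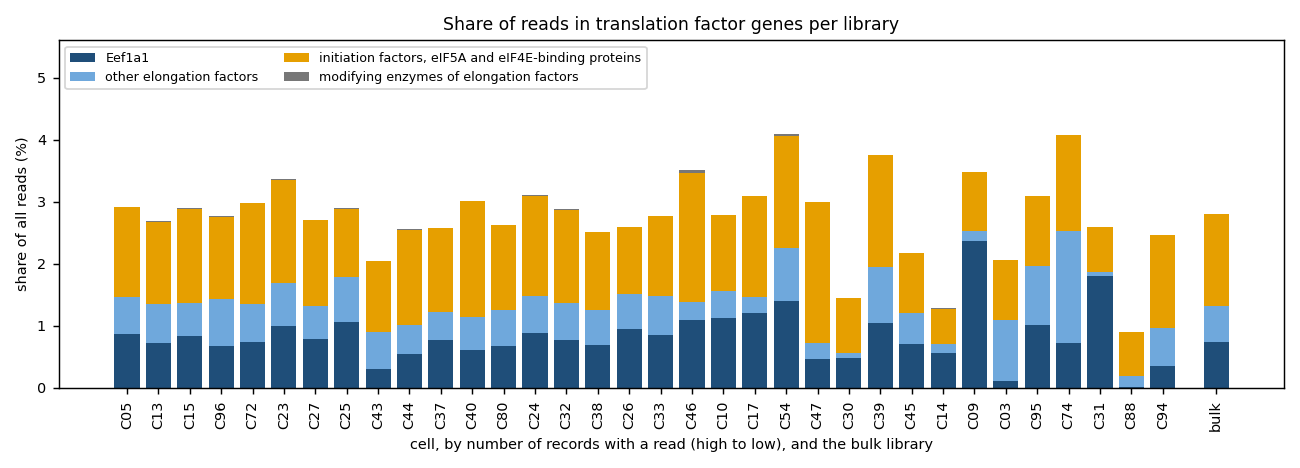
Stacked bars give the share of all reads (%) in translation factor genes for each cell, ordered by the number of records with a read from high to low, and for the bulk library at the right. Eef1a1, other elongation factors, initiation factors with eIF5A and eIF4E-binding proteins, and modifying enzymes are stacked; most bars lie near the bulk bar of 2.81%, C88 is lowest at 0.894% and C09 is dominated by Eef1a1.

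Most of the factor genes were found in most of the cells. In all, 42 of the 54 (77.8%) were detected in at least 17 of the 34 cells, whereas 17% of all 17201 records were. Eef1a1 and Eef2 were detected in all 34 cells, as were 0.180% of all records, and 32 factor genes were detected in 25 cells or more. At the other end, 5 genes were detected in 5 cells or fewer, among them Eef2k, which was detected in 0. At a threshold of 50 CPM, 34 of the 54 genes and 8.23% of all records reached 17 cells. A cell held 36.9 ± 10.3 detected factor genes, from 9 in C94 to 48 in C40, and the bulk library held 46. Gene-rich cells held 43.5 ± 2.99 and the other cells 24.8 ± 7.55. After every cell was thinned to 40000 reads, which left out 4 shallower cells, the numbers were 40.7 ± 3.18 in the 22 gene-rich cells and 25.75 ± 4.30 in 8 other cells. The number of factor genes detected followed the number of records with a read, with a Spearman's rho of 0.887 over 34 cells that differ in depth and of 0.582 over the 22 gene-rich cells.

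**Figure D2:**
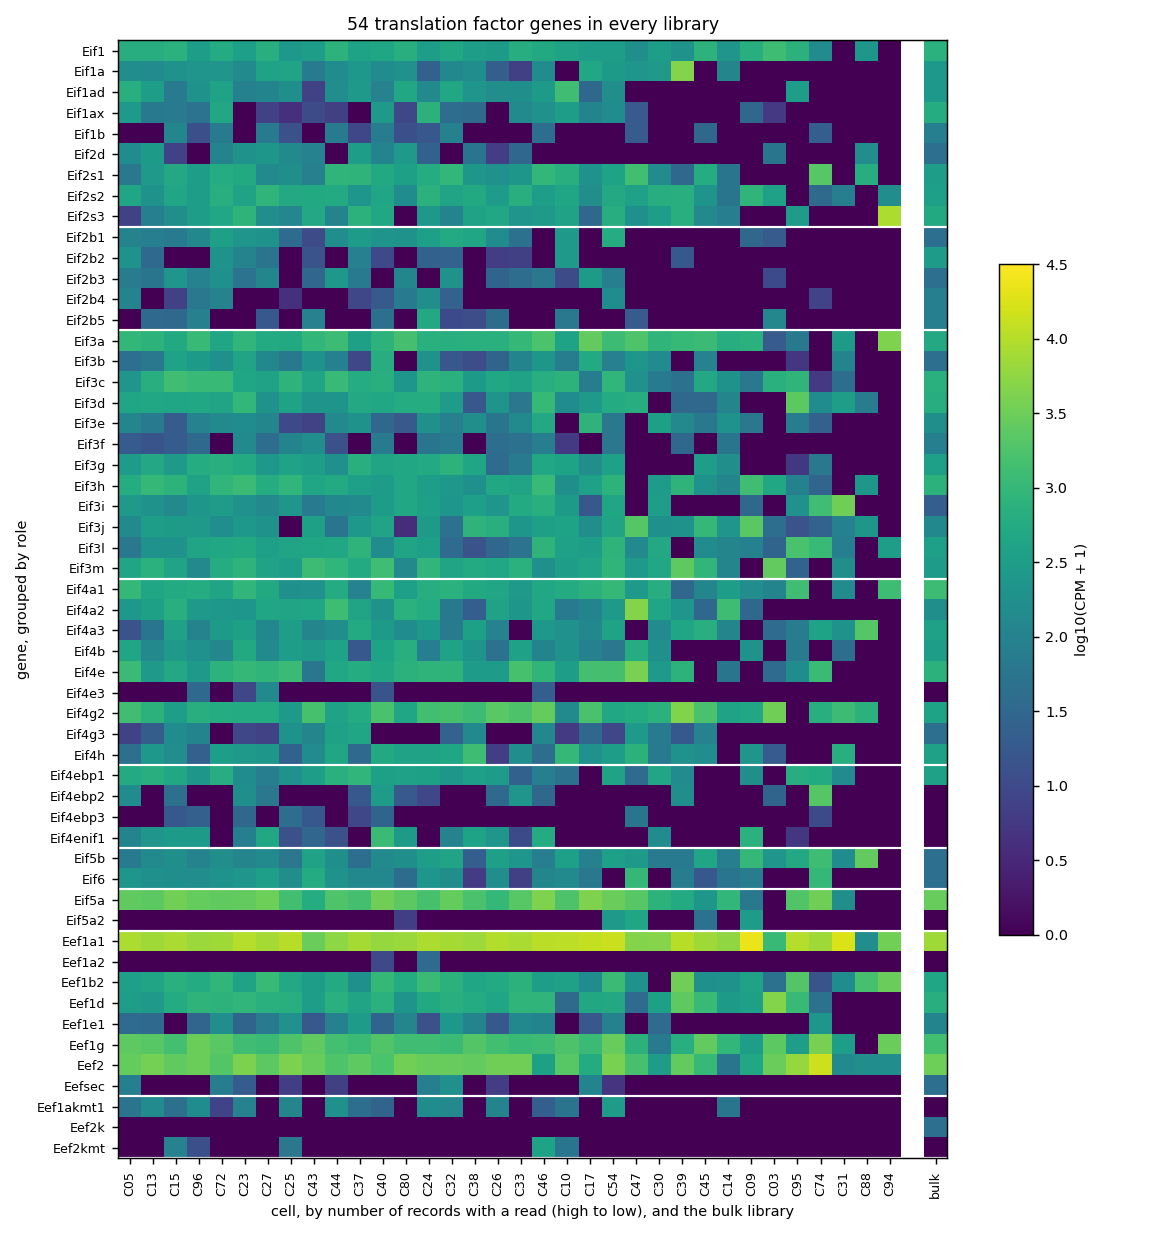
Colour gives log10(CPM + 1) of each of the 54 genes (rows, grouped by role) in each cell (columns, ordered by the number of records with a read from high to low) and in the bulk library at the right. Eef1a1 and Eef2 are filled in every column, whereas Eef1a2, Eif5a2, Eif4e3, Eef2k and Eef2kmt are at 0 in nearly all cells, and empty entries accumulate in the gene-poor cells at the right.

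Of the 8 elongation factors, 5 were detected in 31 or more cells, and none of the 6 that could be compared with bulk was 2-fold apart. Levels of different genes are not ranked here, because CPM is not corrected for transcript length and no lengths were used. Eef1a1, which delivers aminoacyl-transfer RNA, ranged from 157 CPM in C88 through a median of 7717 to 23656 CPM in C09, and was 7343 CPM in bulk. Its mean was 8269 ± 4399.8 CPM in the cells, 1.13-fold the bulk level (exact Poisson 95% interval of the bulk reads, 1.01 to 1.25). In C31 it reached 18026 CPM, and the 22 gene-rich cells spanned a narrower range, 2966 to 13975 CPM. Eef2, the translocation factor, ranged from 56.1 CPM through a median of 2581 to 14165 CPM in C74, and was 3226 CPM in bulk. Its ratio of cells to bulk was 0.806 (0.688 to 0.951). With reads pooled over cells or with DESeq2 size factors, Eef2 lay above bulk instead, at log2 ratios of 0.13 and 0.54. C74 also had the highest value of Eef1g.

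The exchange factor for Eef1a1 consists of Eef1b2, Eef1d and the Eef1g subunit. Eef1g had a median of 1346 CPM and a highest value of 3706 CPM in the cells, and 1379 CPM in bulk, with detection in 33 cells. It was 1555 ± 908 CPM on average, 1.13-fold the bulk level (0.885 to 1.46). Eef1b2 was detected in 33 cells at 721 ± 762 CPM, against 446 CPM in bulk, and its highest value was 3286 CPM in C39. Eef1d was detected in 31 cells at 674 ± 827 CPM, against 658 CPM in bulk, with 4555 CPM in C03. Both means leaned on gene-poor cells and were 613 ± 307 and 572 ± 238 CPM over gene-rich cells.

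The muscle and neuronal paralogue Eef1a2 had reads in 2 cells, C24 and C40. These came to 11 reads, and there were 0 in bulk, which allows up to 63.7 CPM. Eef1e1, a subunit of the multi-synthetase complex, was detected in 22 cells at 61.4 ± 81.7 CPM, against 106 CPM in bulk. Eefsec, which serves selenocysteine, was detected in 9 cells, all of them gene-rich. Among the modifying enzymes, the methyltransferase gene Eef1akmt1 was detected in 17 cells at 49.8 ± 73.1 CPM and Eef2kmt in 5 cells. Eef2k, the kinase that inhibits Eef2, had 0 reads in the cells and 2 reads in bulk.

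Eif5a, the hypusine-bearing factor that helps at difficult peptide bonds, was detected in 31 cells and Eif5a2 in 5. Eif5a ranged from 0 through a median of 1856 to 4213 CPM in C17, and was 2844 CPM in bulk. The mean was 1851 ± 1238 CPM, 0.651-fold the bulk level (0.55 to 0.777). Over gene-rich cells, all of which had it, the mean was 2398 ± 959 CPM and the ratio 0.843. Eif5a2 had a highest value of 456 CPM, in C47, and 0 reads in bulk. Of the 5 cells with Eif5a2, 3 were outside the gene-rich cells.

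The 3 subunits of eIF2, which carries the initiator transfer RNA, were found together in 26 cells, of which 21 were gene-rich. No cell lacked all of them. Eif2s2 was among the most even of the factor genes, with a median of 406 CPM and a highest value of 895 CPM, against 340 CPM in bulk. Eif2s1 was detected in 29 cells at 434 ± 458 CPM, against 318 CPM in bulk. Eif2s3 was detected in 28 cells at 514 ± 1502 CPM, against 531 CPM in bulk. C94 held 51.0% of the Eif2s3 signal, at 8906 CPM, and without it the mean was 260 CPM (259.5) and the ratio to bulk 0.489.

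Among the genes of start codon recognition, Eif1ax and Eif1b were 2-fold or more below bulk. Eif1, which guards start codon choice, was detected in 32 cells at 451 ± 267 CPM, with a median of 368, against 743 CPM in bulk, a ratio of 0.608 (0.437 to 0.872). Eif1a was detected in 25 cells, and C39 held 50.1% of its signal. Its mean was 269 ± 772 CPM with C39 and 138 CPM without it, against 255 CPM in bulk, a ratio of 1.06 with C39 and 0.543 without it. Eif1ax was detected in 20 cells at 89.5 ± 167 CPM, with a median of 9.30 and a highest value of 788 CPM in C24, against 615 CPM in bulk. The ratio of cells to bulk for Eif1ax was 0.145 (0.101 to 0.217), and 0.221 over gene-rich cells. Eif1a and Eif1ax are closely similar in sequence, and how reads shared between them were counted is not given, so their separate values are uncertain. Eif1ad was detected in 23 cells, Eif2d in 17 and Eif1b in 15, and Eif1b was 19.9 ± 32.4 CPM in the cells, against 84.9 CPM (4 reads) in bulk.

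Of the 5 subunit genes of eIF2B, the factor that recharges eIF2 with GTP, 2 reached 17 cells. Eif2b1 was detected in 22 cells, Eif2b3 in 19, Eif2b2 in 14, Eif2b5 in 13 and Eif2b4 in 11. A gene-rich cell held 3.27 ± 1.16 of the 5 genes and another cell 0.583 ± 0.9, whereas the bulk library held all 5. All 5 were found in 1 cell, C32, and none in 7 cells, all outside the gene-rich set. Eif2b2 had a median of 0 and a highest value of 271 CPM in the cells, against 297 CPM (14 reads) in bulk, a ratio of 0.103 (0.0615 to 0.189). Eif2b1 went the other way, at 134 ± 170 CPM in the cells and 42.4 CPM (2 reads) in bulk, with an interval of the ratio that included 1 (0.877 to 26.2). Eif2b3 was 58.1 ± 80.6 CPM in the cells and 42.4 CPM in bulk. Eif2b5 was 32.2 ± 91.9 CPM in the cells, or 17.4 CPM without C24, against 84.9 CPM (4 reads) in bulk, and Eif2b4 was 21.4 ± 45.1 CPM in the cells, against the same bulk level.

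All 12 measured genes of eIF3, the largest initiation complex, were detected in at least 17 cells. All 12 were found together in 15 cells, and at least 10 in 23 cells, of which 21 were gene-rich. Gene-rich cells held 11.5 ± 0.8 of them and the other cells 7.17 ± 2.52, while bulk held 12. After thinning the numbers were 11.1 ± 1.13 and 7.125 ± 1.46. Eif3a and Eif3l were detected in 32 cells each, and Eif3c, Eif3h and Eif3j in 31. Eif3f, in 18 cells, was the least often detected.

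Within eIF3, single subunits differed in how cells compared with bulk. Eif3a, the scaffold subunit, ranged from 0 through a median of 766 to 4294 CPM, with a mean of 924 ± 808 CPM, against 509 CPM in bulk. Eif3m was 588 ± 604 CPM in the cells and 297 CPM in bulk. Eif3c was 506 ± 381 and Eif3h 481 ± 362 CPM in the cells, and they were 722 and 764 CPM in bulk. Eif3i stood farthest apart, with a median of 211 and a highest value of 3324 CPM in C31, against 1 read (21.2 CPM) in bulk. It was detected in 27 cells, among them all 22 gene-rich cells, where its mean was 271 ± 163 CPM. The ratio of its cells' mean to bulk was 15.4, with an interval of 2.77 to 609. Eif3j was 365 ± 502 CPM in the cells and 127 CPM (6 reads) in bulk, a ratio of 2.87 (1.32 to 7.82).

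**Figure D3:**
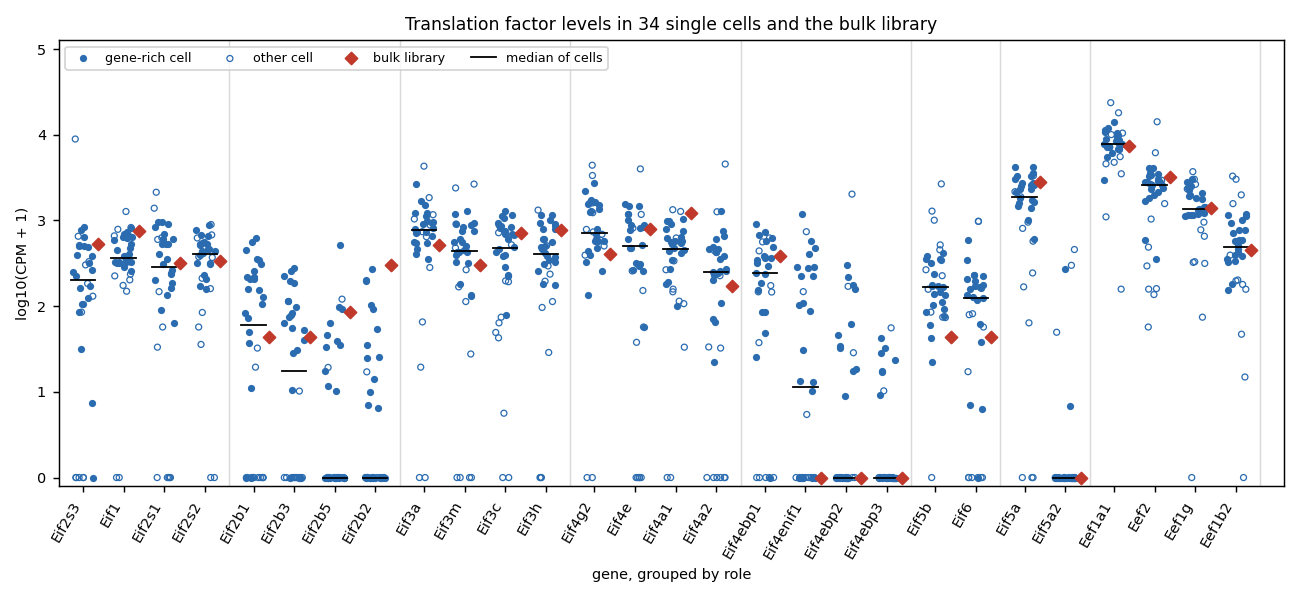
Points give log10(CPM + 1) of the 4 genes with the highest mean in each role (2 where a role has 2 genes; the modifying enzymes are not drawn) in 34 cells, with gene-rich cells filled and other cells open, the median of cells as a line and the bulk library as a diamond to the right. Eef1a1 and Eef2 have no cell at 0; the bulk diamonds of Eif2b2 and Eif4a1 lie above most cells, and that of Eif5b lies below most.

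In the cap-binding complex, the helicase paralogues lay on opposite sides of bulk. Eif4a1, the main helicase, ranged from 0 through a median of 464 to 1333 CPM, against 1231 CPM in bulk. Its mean was 494 ± 358 CPM, 0.401-fold the bulk level (0.31 to 0.528), and only 2 cells, C95 and C94, exceeded the bulk value. Eif4a2 ranged from 0 through a median of 251 to 4546 CPM in C47, against 170 CPM (8 reads) in bulk. It averaged 435 ± 794 CPM, 2.56-fold the bulk level (1.30 to 5.94), and the ratio was 1.83 without C47. Eif4a1 was detected in 32 cells and Eif4a2 in 28, and the 2 were found together in 28. Over the 22 gene-rich cells their rho was −0.42, and over all 34 it was 0.05. These correlations carry no test, cells of 1 culture share their source, and RefSeq lists 8 named pseudogenes of Eif4a1 with which reads could be shared.

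Eif4g2, a scaffold relative that does not bind Eif4e, was detected in 32 cells. It ranged from 0 through a median of 711 to 4406 CPM in C39, against 403 CPM (19 reads) in bulk, and averaged 1088 ± 961 CPM, 2.70-fold the bulk level (1.73 to 4.48). Eif4g3, a scaffold that binds Eif4e, was detected in 19 cells at 65.6 ± 112 CPM, against 42.4 CPM in bulk. No record matched Eif4g1, another scaffold gene, or Eif4e2, so neither could be described. Eif4e, the cap-binding protein, was detected in 29 cells at 677 ± 757 CPM, with 3989 CPM in C47, against 785 CPM in bulk. Eif4a3, a helicase of the exon junction complex, was detected in 30 cells, and the helicase helpers Eif4h and Eif4b in 29 and 27. Eif4e3 was detected in 5 cells.

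Of the proteins that hold Eif4e back, Eif4ebp1 was the most widely detected. Eif4ebp1 was found in 28 cells at 283 ± 250 CPM, with a median of 240 and a highest value of 909.7 CPM, against 382 CPM in bulk. It was detected together with Eif4e in 26 cells. Eif4ebp2 was detected in 14 cells, and C74 held 61.7% of its signal, so that its mean of 96.6 CPM was 38.2 CPM without that cell. Eif4ebp3 was detected in 9 cells at no more than 54.8 CPM. Eif4enif1, which carries Eif4e to the nucleus and to processing bodies, was detected in 18 cells at 152 ± 261 CPM. All 3 of Eif4ebp2, Eif4ebp3 and Eif4enif1 had 0 bulk reads. The cells' mean of Eif4enif1 was 2.39-fold the floor of 3 bulk reads and 1.95-fold the upper Poisson limit of bulk.

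Eif5b, the GTPase of subunit joining, and Eif6, which keeps the large subunit from joining too early, were both at 42.4 CPM (2 reads) in bulk. Eif5b was detected in 33 cells, with a median of 167 and a highest value of 2667 CPM in C88, and averaged 320 ± 492 CPM. Its ratio of cells to bulk was 7.54 (2.09 to 62.3), and 4.37 over gene-rich cells. Eif6 was detected in 27 cells at 171 ± 238 CPM, a ratio of 4.03 (1.12 to 33.3).

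**Figure D4:**
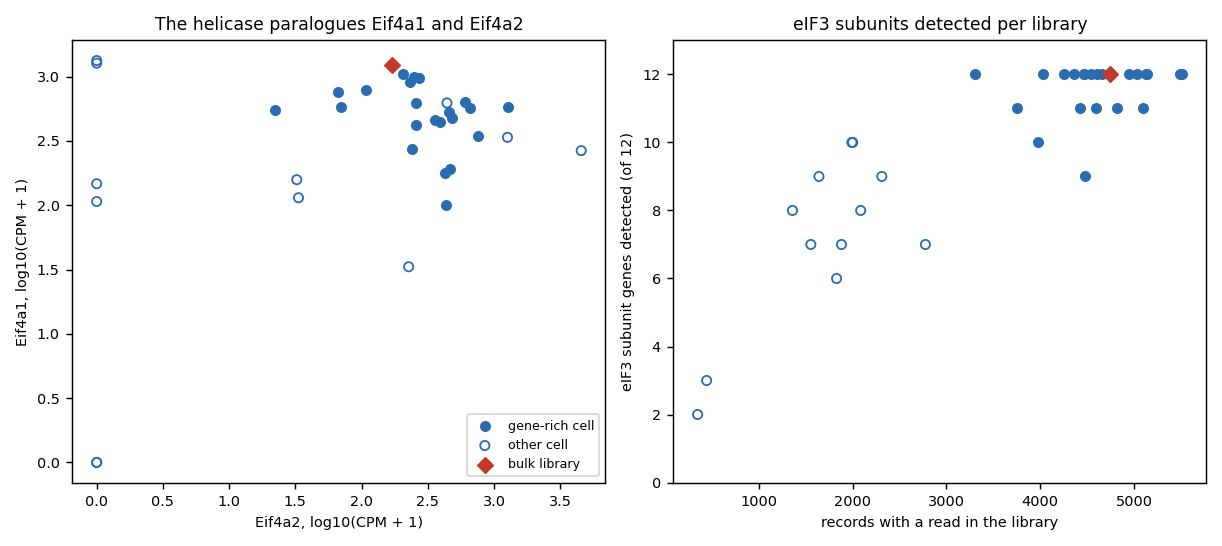
The left panel plots Eif4a1 against Eif4a2 in each cell and in bulk, both as log10(CPM + 1); the bulk diamond lies above all but 2 cells on the Eif4a1 axis. The right panel plots the number of eIF3 subunit genes detected (of 12) against the number of records with a read; the 22 gene-rich cells hold 9 to 12 and the other cells 2 to 10.

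Most factor genes were within 2-fold of bulk. Ratios were taken as log2 of CPM + 20, which is about 1 bulk read, over records whose levels in cells and bulk averaged at least 50 CPM. Of the 45 factor genes compared, 9 (20%) were higher in the cells by 2-fold or more, as were 19.5% of the 3441 records compared. A further 7 (15.6%) were lower in the cells by 2-fold or more, as were 26.5% of all records, and 29 were within 2-fold. The share of factor genes higher in the cells is at the background, and the share lower in the cells is below it by a difference that was not tested. The median log2 ratio was −0.04 over factor genes and −0.19 over all records. In a bulk library, fewer cells with a transcript and less of it per cell cannot be told apart.

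The bulk depth limits these ratios. Of the 9 genes higher in the cells, 6 had at most 3 bulk reads, and for 7 the interval excluded 1. Of the 7 lower in the cells (Eif2b2, Eif1ax, Eif1b, Eif2b4, Eif4a1, Eif3f and Eif2b5), 4 had no more than 4 bulk reads, and for 5 the interval excluded 1. Among the 28 genes with at least 10 bulk reads, 4 were 2-fold or more apart: Eif4g2 higher in the cells, and Eif4a1, Eif1ax and Eif2b2 lower. Under 9 other settings of scaling, cells and depth, none of the 16 turned its direction. All 9 used the same bulk library, so they do not cover its counting error. Past 2-fold every time were 3 of the 9 genes higher in the cells (Eif3i, Eif5b and Eif6) and 2 of the 7 lower (Eif2b2 and Eif1ax). Of these, Eif3i had 1 bulk read, and Eif5b and Eif6 had 2 each. Over gene-rich cells alone, 13 factor genes in place of 16 were 2-fold or more apart, against 41.4% of all records. Eif2b4, Eif3f and Eif2b5 then fell short, at log2 ratios of −0.99, −0.69 and −0.72. Many genes within 2-fold and below bulk turned above it with DESeq2 size factors. The log2 ratios were then 0.54 for Eef2, 0.46 for Eif4e, 0.39 for Eif3g and 0.28 for Eif3c, Eif4ebp1 and Eif1ad. They were 0.19 for Eif4h, 0.12 for Eif1, 0.07 for Eif5a and Eif3h and 0.02 for Eif3e.

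**Figure D5:**
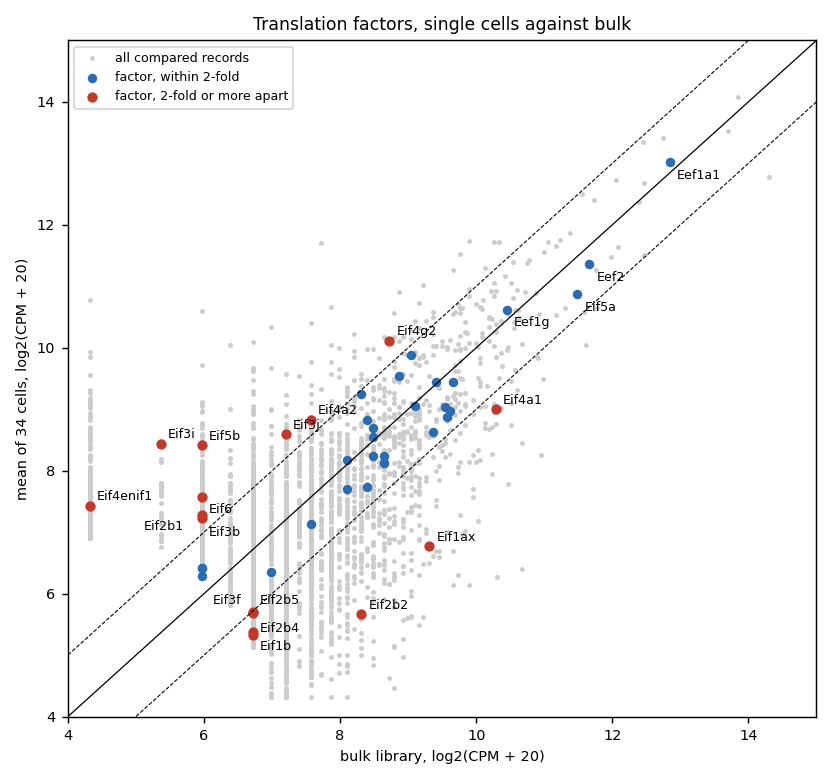
Each point is a record, with the mean of 34 cells against the bulk library, both as log2(CPM + 20); the solid line marks equality and the dashed lines 2-fold. Factor genes (blue within 2-fold, red beyond) lie along the line at high levels, such as Eef1a1, Eef2 and Eef1g, while Eif4g2, Eif3i and Eif5b lie above it and Eif4a1, Eif1ax and Eif2b2 below.

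The spread between cells was described by the coefficient of variation (SD over mean of CPM). For the 41 factor genes that averaged 50 CPM or more, its median was 1.15, from 0.532 to 3.61, against 1.63 over 3306 records. Over the gene-rich cells alone, the medians were 0.679 for factor genes and 1.13 for all such records. Among those that averaged 200 CPM or more, it was 1.01 for 28 factor genes and 1.26 for 943 records. The smallest values were those of Eef1a1 (0.532), Eef1g (0.584), Eif1 (0.591), Eif2s2 (0.614) and Eif5a (0.669). The largest were those of Eif4ebp2 (3.61), Eif2s3 (2.92), Eif1a (2.87), Eif1ax (1.86) and Eif4a2 (1.82). A single cell held over 50% of the signal in 3 of the 41 (Eif4ebp2, Eif2s3 and Eif1a), as in 13.8% of the 3306 records, and those cells were C74, C94 and C39. Of the 53 genes with a read in the cells, 27 had their highest value in 1 of the 12 cells outside the gene-rich set.

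Pairs of factor genes were weakly correlated from cell to cell. Over gene-rich cells, the 378 pairs of 28 factor genes that averaged 200 CPM or more had a median rho of 0.06, against 0.02 for all pairs of such records. A rho of at least 0.5 was found in 9 pairs, 2.38%, against 1.91% of all pairs. Over all 34 cells the order was the other way, at 2.91% of factor pairs and 5.15% of all pairs. The median rho was then 0.15 for factor pairs and 0.16 for all pairs. Over gene-rich cells, the highest were Eef1a1 with Eif4e (0.651), Eif2s3 with Eif3j (0.605) and Eif4a1 with Eif5a (0.573). The lowest was Eif1a with Eif5b (−0.54). The share of a cell's reads in the 43 Eif records was also taken, with Eif5a and the eIF4E-binding proteins included. Over the 22 gene-rich cells that share had a rho of 0.18 with the Eef1a1 share and 0.11 with the ribosomal protein share. These weak values in sparse counts are descriptions of cells that share 1 culture and differ in depth.

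Around the factors themselves, other genes of the translation pathway were taken by list, and the share of records 2-fold apart given above is their background too. The limit set by the bulk depth applies to them as well. Of the 4 eIF2 kinase genes, which shut initiation down under stress, none reached 17 cells. Eif2ak1 was detected in 16 cells, all gene-rich, at 60.8 ± 129 CPM, against 127 CPM in bulk. Eif2ak3 was detected in 9 cells at 30.9 CPM, or 14.9 CPM without C14, and had 0 reads in bulk. Of the 10 transcripts of the integrated stress response, which follows eIF2 phosphorylation, 4 reached 17 cells. Of the 5 compared with bulk, 4 were higher in the cells and 0 lower. Among these 4, Ddit3 had 1 bulk read, Ppp1r15a 2 and Sesn2 3. Atf4, the main transcription factor of the response, was detected in 31 cells at 644 ± 1349 CPM, against 297 CPM in bulk. C39 held 36.3% of that signal, and without it the mean was 423 CPM and the ratio to bulk 1.42. Asns, an Atf4 target, was 491 ± 867 CPM in the cells and 679 CPM in bulk.

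Of 13 genes of termination, recycling and mRNA binding, 12 reached 17 cells, and of 10 compared 4 were higher in the cells and 0 lower. Pabpc1, the poly(A)-binding protein that contacts the Eif4g scaffold, averaged 3301 CPM in the cells, with 81.2% of the signal in C88. Without C88 it averaged 639 CPM, against 191 CPM in bulk. Gspt1, a release factor, was 637 ± 922 CPM in the cells and 552 CPM in bulk. Of 14 genes that control or modify the factors, 6 reached 17 cells, and of 8 compared 2 were higher in the cells and 4 lower. The phosphatase subunit Ppp1r15b, which reverses eIF2 phosphorylation, was 867 ± 949 CPM in the cells and 849 CPM in bulk. Its stress-induced paralogue Ppp1r15a was 191 ± 436 CPM in the cells, or 124 CPM without C74, against 42.4 CPM (2 reads) in bulk, and it also belongs to the stress response list. Of 8 mitochondrial factors, 2 reached 17 cells: Tufm, detected in 23 at 164 ± 257 CPM, against 106 CPM in bulk, and Gfm1, detected in 22 at 73.0 ± 80.6 CPM, with 0 reads in bulk.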

How the data were processed

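The authors deposited whole-number read counts for each RefSeq record, in a single table that holds 34 cells and 1 bulk library. TopHat2 and rn5 were used, per the submitters' processing notes; no source used here gives the read counter, the annotation or how shared reads were handled. RefSeq lists 107 named pseudogenes for 31 of the 54 factor genes (20 for Eef1a1, 16 for Eef1g, 10 for Eif4e), so reads could be shared with these copies. Of 17201 records, 16215 matched a symbol in the RefSeq gene table of GRCr8; the other 986 (4.11% of reads) stayed in the totals.

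CPM values were computed from column totals with Python 3.11.15, pandas 2.3.3 and scipy 1.17.1, and alternatives used edgeR 4.0.16 (TMM) and DESeq2 1.42.0 (poscounts). One read was worth 21.2 CPM in bulk and 1.99 to 159 CPM in a cell. No molecular identifiers are mentioned, so intervals (Poisson for bulk reads with the cells' mean held fixed, Clopper-Pearson for shares) and the floor of 3 reads (63.7 CPM) cover counting error only. Thinning drew 40000 reads per library with a fixed seed. Ratio calculations were tested on simulated Poisson counts around a mean shared by all cells, with changes set only in genes of high mean. The simulation held no other spread between cells, so it does not cover low genes or ratios led by a single cell. No doublet caller was run. With a single culture of cells and a single bulk library, no test was made.

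Members and lists were chosen with earlier results of these data known, and the TOP motif rule after the sequences were seen. Named are the 4 genes of each role with the highest mean, and the 5 largest and 5 smallest ratios to bulk and coefficients of variation. Fixed paralogue pairs and genes with no read are named too, but Eif4g1 and Eif4e2 of the planned pairs matched no record. The remaining members are named where counts call for them, chosen after their values were seen. An order of levels per kilobase had been planned and was not made, since no transcript lengths were used.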

Additional observations from a re-analysis of the deposited data

How the results depend on the processing

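With DESeq2 size factors, the median log2 ratio of cells to bulk over factor genes turned to 0.72, and the median over all records to 0.58, against −0.04 and −0.19 as reported. With a pseudocount of 50 CPM, 10 factor genes in place of 16 were 2-fold or more apart, since a larger pseudocount shrinks every ratio. Over gene-rich cells alone, which leaves out 12 cells, the median coefficient of variation was 0.679 in place of 1.15, and 1.13 in place of 1.63 over all records. Without their highest cell, Eif2s3, Eif1a and Eif4ebp2 averaged 259.5, 138 and 38.2 CPM in place of 514, 269 and 96.6 CPM. With TMM factors the median log2 ratio was 0.07 over factor genes and −0.01 over all records. The median over factor genes was also above 0 after thinning (0.15), with reads pooled over cells (0.03) and with no filter on low values (0.06), so its direction is not settled, and the cause was not tested. The filter at a mean of 200 CPM was added after the data were seen. The bulk depth of 47121 reads limits every ratio to bulk. No paired analysis was possible because the labels give the cells and the bulk library no replicate numbers to pair.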
